A study of Mus musculus with 10 samples.

Results

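Isolated Klf9 regions are those listed regions that stand alone in the genome, with more than 250 kb of chromosome free of any other listed region on each side. They were taken from a list of 3516 regions recovered with the transcription factor Klf9 in HT22 cells, an immortalised line of mouse hippocampal neuronal cells. The gap was counted in bases between the end of a region and the start of the next on the same chromosome. A side with no further region before the chromosome end counted as passing. Chromosomes 7 and 11 were left out after the gaps were computed. The rule gave 595 isolated regions, 16.9% of the list (exact binomial 95% interval 15.7 to 18.2%) and 20.9% of the 2845 regions on the 18 chromosomes considered, 17 autosomes and chromosome X. The members were chosen by their gaps, computed from the listed starts and ends, so all distances below are descriptions and carry no test.

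Klf9 is a Krüppel-like factor, a zinc-finger protein that binds GC-rich and CACCC-type DNA elements and acts mostly as a repressor of transcription. Its gene responds to thyroid hormone and glucocorticoids. In neurons the protein is known for a part in late maturation and for limiting axon growth. Sites of such factors are often found at gene promoters, which lie close together in gene-rich stretches of the genome, and a smaller number lie far from other sites.

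The chromatin came from stably transfected lines. HT22[BirA] carried the construct pSV40-zeo-BirA-V5 and was kept under zeocin, and HT22[BirA/FLBIO-Klf9] carried that construct together with pEF-FLBIO-Klf9 and was kept under zeocin and puromycin. BirA is a bacterial biotin ligase, present in every library, and the FLBIO tag on Klf9 lets the factor be biotinylated and pulled down on streptavidin. Each line gave 4 pulldown libraries and 1 input library. The tagged Klf9 came from a transfected construct, and the labels do not say whether a line was 1 clone. The list gives chromosome, start and end for the whole series, with no value per library, so the depth behind a region, its replicate error and its signal in the BirA-only line are unknown here. The submitters' processing notes name the build mm8, and positions are printed as they stand in the list. Sequence and annotation of mm8 were not used here, so a region is named by its position alone, without gene or promoter.

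Isolation was graded rather than sharply separated from the rest. The distance from an isolated region to its nearest listed neighbour had a median of 489 kb, with quartiles at 345 and 1065 kb, and reached 11.2 Mb. Among the 2250 other regions on the same chromosomes the median was 28.7 kb. Of the isolated regions, 293 (49.2%) had no other within 500 kb, 162 (27.2%) none within 1 Mb, 77 (12.9%) none within 2 Mb and 16 none within 5 Mb. The threshold itself cut through a continuous range. Just inside it lay a region of 1020 bp on chromosome 2 from 122060001 to 122061020, with its nearest neighbour 250.24 kb away, and regions on chromosome 15 (64141681 to 64142970) and chromosome 17 (56681822 to 56683100), both at 251.26 kb. Just outside it lay a region on chromosome 17 from 17078302 to 17079220, at 249.22 kb, and regions on chromosome 4 (149081501 to 149081841) and chromosome 6 (87008041 to 87009640), both at 248.54 kb. Each of these last 3 had a gap above the threshold on its other side. A gap above 250 kb on exactly 1 side was found for 1100 of the other regions (48.9%).

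**Figure D1:**
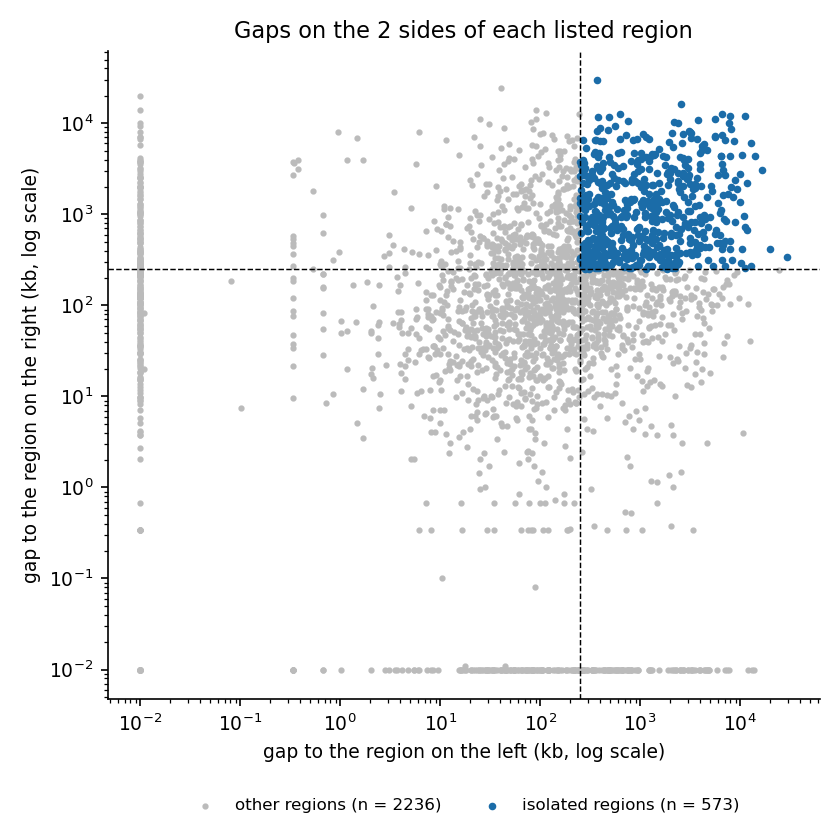
Gap to the neighbouring listed region on the left (x axis) and on the right (y axis), in kb on log scales, for regions of the 18 chromosomes with a neighbour on each side. The dashed lines mark 250 kb: the 573 isolated regions (blue) fill the upper right corner from 250 kb upwards, and the other regions (grey) continue up to the lines without a break.

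The most isolated region measured 1000 bp and lay on chromosome 14 from 85972401 to 85973400. It was separated from its neighbours by 11.2 Mb on the left and 11.95 Mb on the right, so that it was the only listed region in 23.2 Mb. The next was a narrow region of 511 bp on chromosome X (81826441 to 81826951), with gaps of 8.14 and 8.66 Mb. Chromosome 4 held the third, of 531 bp, from 69896521 to 69897051, with gaps of 7.89 and 11.97 Mb. The fourth lay on chromosome 2 from 59683261 to 59683860 and measured 600 bp, with gaps of 7.79 and 9.98 Mb. Except for the region on chromosome 14, these leading 4 were narrower than 680 bp, the lower quartile of the isolated set.

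The remaining members of the 10 most distant were of varied width. A region of 680 bp on chromosome 4 (19496961 to 19497640) stood 6.66 Mb from its nearest neighbour. A region of 1700 bp on chromosome 1 (66749481 to 66751180) stood 6.62 Mb away, and it was also among the 5 widest isolated regions. On chromosome 2 a region of 849 bp (143856552 to 143857400) had 6.62 Mb on its nearer side and 7.05 Mb on the other. The last listed region of chromosome 13, of 1360 bp (120527281 to 120528640), was 6.60 Mb from the preceding one. Chromosome X supplied the other two, both of 909 bp, from 107580132 to 107581040, 6.89 Mb from its only neighbour, and from 90487032 to 90487940, with 6.34 Mb on its nearer side.

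The 2 sides of an isolated region were often unequal. For the 573 isolated regions with a neighbour on each side, the longer gap was a median 2.52 times the shorter one (quartiles 1.44 and 5.03), with a median of 1.86 Mb for the longer and 486 kb for the shorter. A further 14 were the first region listed on their chromosome and 8 the last. The extreme was a ratio of 86.4. The longest gap of the 18 chromosomes, 29.7 Mb on chromosome 16, had an isolated region at each end: 890 bp from 57527661 to 57528550, whose other neighbour was 374 kb away, and 680 bp from 87243321 to 87244000, whose other neighbour was 344 kb away. This gap was singled out after its value was seen. Of the 96 gaps longer than 5 Mb, 80 had an isolated region on at least 1 side and 40 on each side. Any gap above 250 kb already passes the rule on 1 side for both flanking regions. The matching shares over all 1127 gaps above 250 kb were not computed, so these counts show no association beyond the rule.

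The share of isolated regions was lower on chromosomes where the list was denser. Their share of the listed regions was highest on chromosome 1, with 66 of 147 (44.9%, exact binomial 95% interval 36.7 to 53.3%), and on chromosome 13, with 33 of 82 (40.2%, 29.6 to 51.7%). Chromosomes 12, 14 and X followed, with 34 of 88 (38.6%), 26 of 68 (38.2%) and 10 of 27 (37.0%), and the intervals of these 5 chromosomes overlapped. At the other end stood chromosome 19, with 11 of 182 (6.04%, 3.06 to 10.6%), then chromosomes 17, 4 and 15, with 13.3, 13.4 and 13.5%. These intervals reflect counting error alone and take each region as independent of the next. Because crowding leaves fewer wide gaps, a lower share on a denser chromosome is built into the rule. Over the 18 chromosomes the share ran against the number of listed regions per Mb (Spearman's rho -0.92, Pearson's r -0.85, the same regions being counted in both measures).

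Per length of chromosome, the number of isolated regions varied less than that of all listed regions. The density of all listed regions, over the span from the first to the last on a chromosome, ranged from 0.268 per Mb on chromosome X and 0.599 on chromosome 14 to 3.24 on chromosome 19. The density of isolated regions ranged from 1.89 per 10 Mb on chromosome 6 to 3.49 on chromosome 1 among the autosomes, with 0.993 on chromosome X, and showed little relation to the density of the list (Spearman's rho 0.17, Pearson's r 0.17, 18 chromosomes). A denser list lowers the share of regions that pass the rule, which narrows the range of isolated density by construction. How much of the narrower range this accounts for was not tested. Chromosome 17, among the densest at 2.46 listed regions per Mb, held 3.26 isolated regions per 10 Mb, close to the 3.12 of chromosome 12, listed at 0.807 per Mb. Chromosome 19 held 1.96. Relative to protein-coding genes of the RefSeq table, chromosome 1 had 5.48 isolated regions per 100 genes, chromosome 12 had 5.01 and chromosome 3 had 4.78, while chromosome 19 had 1.56 and chromosome X 1.04. The 2 chromosomes left out had 33 regions (chromosome 7, 12.2% of its list) and 27 regions (chromosome 11, 6.73%) that passed both gaps.

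**Figure D2:**
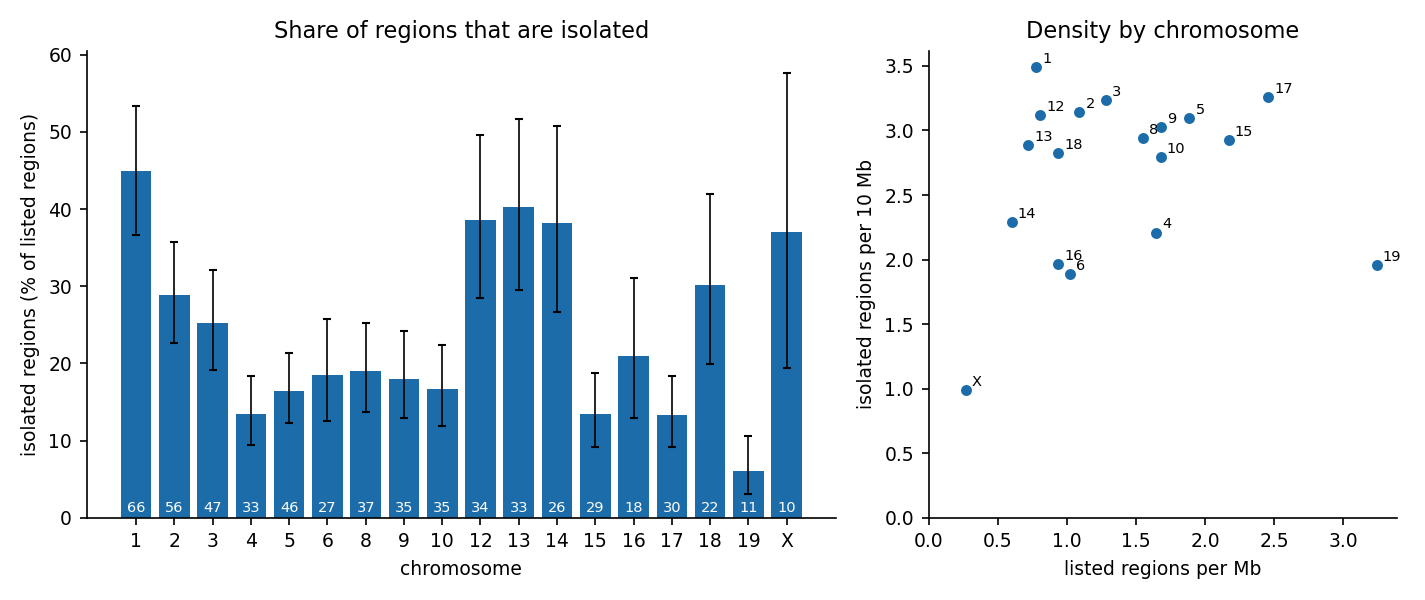
Left, isolated regions as a percentage of the listed regions of each chromosome, with exact binomial 95% intervals and the number of isolated regions in each bar. Right, isolated regions per 10 Mb against all listed regions per Mb over the span of the list, with 1 point per chromosome: the autosomes lie between 1.89 and 3.49 on the y axis at any density, and chromosome X lies below them at 0.993.

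Chromosome X had the sparsest set, and its 10 isolated regions came as 3 in succession and then, further along, 7 in succession. The first 3 lay near each other: 680 bp (69292341 to 69293020), 680 bp (69711561 to 69712240) and 1020 bp (70219521 to 70220540), separated by 419 and 507 kb. The region before them was 19.99 Mb away. The other 7 followed each other with only isolated regions among them. They began with 359 bp from 73686142 to 73686500 and continued with the regions of 511 and 909 bp named among the most distant. A pair 595 kb apart came next, 970 bp from 96828941 to 96829910 and 680 bp from 97424621 to 97425300. The series ended with 1209 bp from 100685372 to 100686580 and the last region of the chromosome, of 909 bp. The median distance to the nearest region was 1.83 Mb for these 10, against 309 kb on chromosome 17, the lowest of the 18, and 1.09 Mb on chromosome 14, the next highest.

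Isolated regions often adjoined each other along a chromosome, which a rule on distance favours, most where the list is thin. Any neighbour of an isolated region has already passed the rule on the side that faces it. The share that this alone would give was not computed, so the counts below are descriptions of the rule's outcome. For 328 of the 595 (55.1%) the nearest listed region was itself isolated. For 67 (11.3%) it was a region with another neighbour within 10 kb. Over all 2250 other regions that share was 35.6%, a different base, since an isolated neighbour cannot have one so close. Taken in order, 127 isolated regions stood as runs of 1, and the others formed 75 runs of 2, 23 of 3, 27 of 4 and 23 longer runs. The longest run comprised 9 isolated regions over 17.8 Mb of chromosome 14, from 33140792 to 50908200. Its first region was the third narrowest of the isolated set, with 369 bp (33140792 to 33141160). The next was 680 bp wide at 35879521 to 35880200, and the third, the widest of the run with 1020 bp, lay at 39875201 to 39876220. The later 6 regions were 680 or 729 bp wide, and successive gaps along the run ranged from 261 kb to 4.70 Mb. Runs of 8 were found on chromosome 1 (163712442 to 172722350, 9.01 Mb), on chromosome 10 (13242722 to 39421640, 26.2 Mb) and on chromosome 12.

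Not all isolated regions lay in empty chromosome. Within 1 Mb on either side, they had a median of 2 other listed regions, compared with 8 for the other regions. The most crowded was a region of 950 bp on chromosome 15 from 75443281 to 75444230, which had 23 listed regions within 1 Mb although the nearest was 291 kb away. This region was chosen after its value was seen. Along the chromosomes, the isolated share was 24.3, 23.8, 19.4 and 18.5% in 4 successive stretches of equal length from the first to the last listed region. These held 137, 134, 140 and 184 isolated regions, and the number of all listed regions was 563 in the first stretch and 996 in the last. A lower share where more regions are listed is built into the rule.

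Width was not used by the rule, and it differed little between isolated and other regions. The isolated regions had a median width of 919 bp (95% interval from order statistics 890 to 950 bp), with quartiles at 680 and 1020 bp, a mean of 904 ± 244 bp (SD over 595 regions) and a range from 231 to 1700 bp. The other 2250 regions had a median of 900 bp (881 to 920 bp), a mean of 878 ± 311 bp (SD) and a range from 1 to 2360 bp. The sign of this difference depended on the reference. A region with a neighbour closer than 340 bp cannot be isolated, and such regions made up 490 of the others (21.8%). With them left out, the remaining 1760 had a median of 954.5 bp (939 to 969 bp), 35.5 bp above the isolated regions, and the intervals overlapped. By chromosome, against this second reference, the isolated median was lower on 11 of 18 chromosomes and higher on 7, with differences from -290.5 bp on chromosome 9 to 259 bp on chromosome 13. The 60 regions that passed both gaps on chromosomes 7 and 11 had a median of 809 bp (680 to 950 bp).

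The extremes of width showed where isolated regions sat in the list. All of the 5 widest measured 1700 bp: on chromosome 1 (66749481 to 66751180), chromosome 4 (106750481 to 106752180), chromosome 10 (5958501 to 5960200), chromosome 16 (91946541 to 91948240) and chromosome 17 (87882861 to 87884560). Apart from the region on chromosome 1, these had a neighbour within 600 kb, the nearest at 341, 280, 469 and 465 kb in that order. No isolated region was wider than 1700 bp, which allows a share of up to 0.618% by the exact binomial interval. Among the others it was 8 of 2250 (0.356%), and 6 of the 1760 without close neighbours (0.341%). Both shares lay under that limit, so these counts do not establish a difference, and none was tested. The narrowest was 231 bp on chromosome 2 (37525461 to 37525691). It was the only isolated region under 340 bp, where the others held 120 (5.33%), and 12 of 1760 (0.682%) without close neighbours. It was followed by 359 bp on chromosome X, 369 bp on chromosome 14, 390 bp on chromosome 6 (140509942 to 140510331) and, on chromosome 3, 399 bp (86310302 to 86310700).

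**Figure D3:**
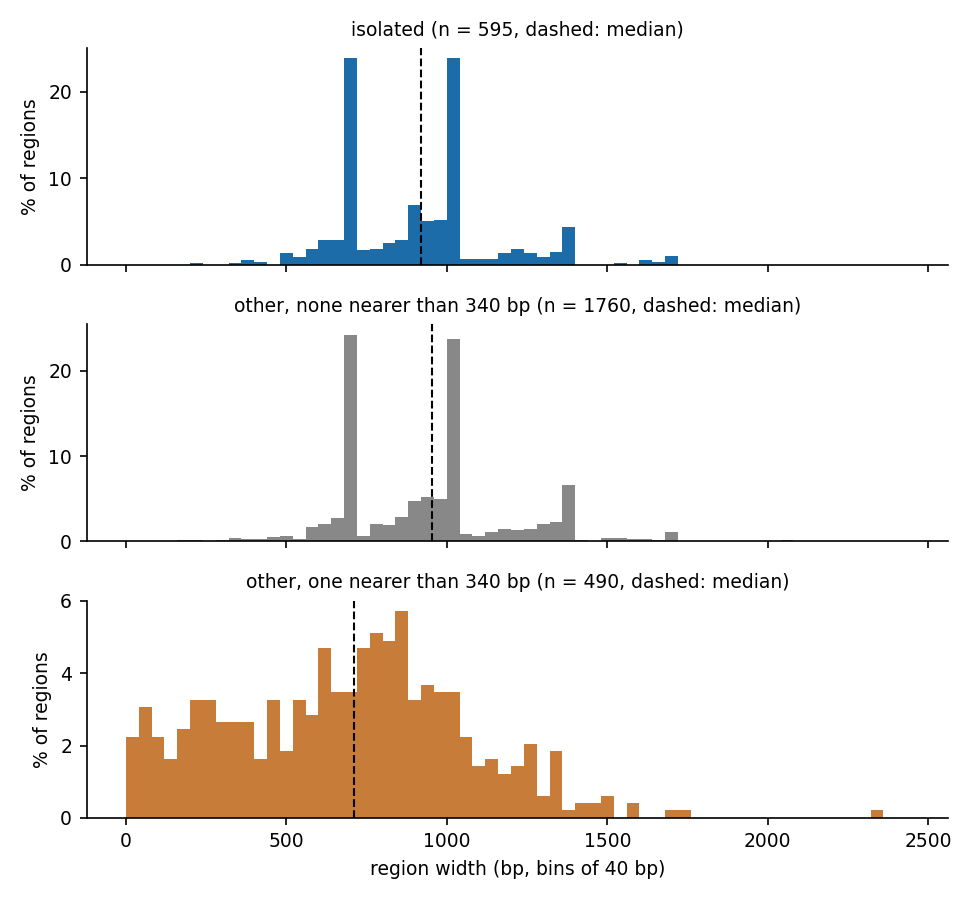
Region width in bp (bins of 40 bp) as a percentage of each set: isolated regions, other regions of the same chromosomes with none nearer than 340 bp, and other regions with one nearer than 340 bp. The dashed lines mark medians of 919, 954.5 and 710.5 bp: the upper 2 sets share peaks at 680 and 1020 bp, and the third set is spread down to 1 bp.

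The same preferred widths recurred in isolated regions as in the rest. A width of exactly 680 bp was found in 137 isolated regions (23.0%, 19.7 to 26.6%) and of exactly 1020 bp in 122 (20.5%, 17.3 to 24.0%), compared with 23.1 and 20.7% among other regions without close neighbours. Much of the list is laid out on a grid of 340 bp, with many starts at a multiple of 340 plus 1 and many ends at a multiple of 340. A second pattern was present off the 340 bp grid: 209 isolated regions (35.1%) started at a position ending in the digit 2. Both boundaries of an isolated region lay on this grid in 288 cases (48.4%, 44.3 to 52.5%), 1 boundary in 240 (40.3%) and neither in 67 (11.3%, 8.83 to 14.1%). Among other regions without close neighbours the shares were 50.9, 40.5 and 8.64% (7.37 to 10.0%). Ends lay on the grid in 72.3% of isolated regions and starts in 64.9% (60.9 to 68.7%), where the same reference gave 72.0 and 70.2% (68.0 to 72.3%). The widths therefore came in steps for much of the set, which limits how finely they can be compared.

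Among regions with no neighbour nearer than 340 bp, the share of broad regions was lower in each isolated class than in the 3 nearer classes. The intervals of these single classes overlapped. In the class under 340 bp it was 2.65% (1.42 to 4.49%), the lowest of all classes. A width of 1360 bp or more was found in 38 of 311 regions (12.2%, 8.79 to 16.4%) whose neighbour lay between 340 bp and 10 kb away, in 9.20% at 10 to 100 kb and in 8.07% at 100 to 250 kb. Among isolated regions it was found in 22 of 302 (7.28%, 4.62 to 10.8%) with the neighbour at up to 500 kb, in 7 of 131 (5.34%, 2.18 to 10.7%) at up to 1 Mb and in 9 of 162 (5.56%, 2.57 to 10.3%) beyond. Together this came to 38 isolated regions (6.39%, 4.56 to 8.66%), compared with 166 of the 1760 others without close neighbours (9.43%, 8.11 to 10.9%). These 2 intervals overlapped, and they take each region as independent of the next. The difference was not tested, since no value per library exists over which to test it. Median width moved from 969 bp (919 to 1020 bp) in the class from 340 bp to 10 kb to 884.5 bp (709 to 949 bp) in the farthest. Across the isolated regions themselves, width and distance were almost unrelated (Spearman's rho -0.08, 595 regions, Pearson's r -0.08 with the logarithm of distance).

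**Figure D4:**
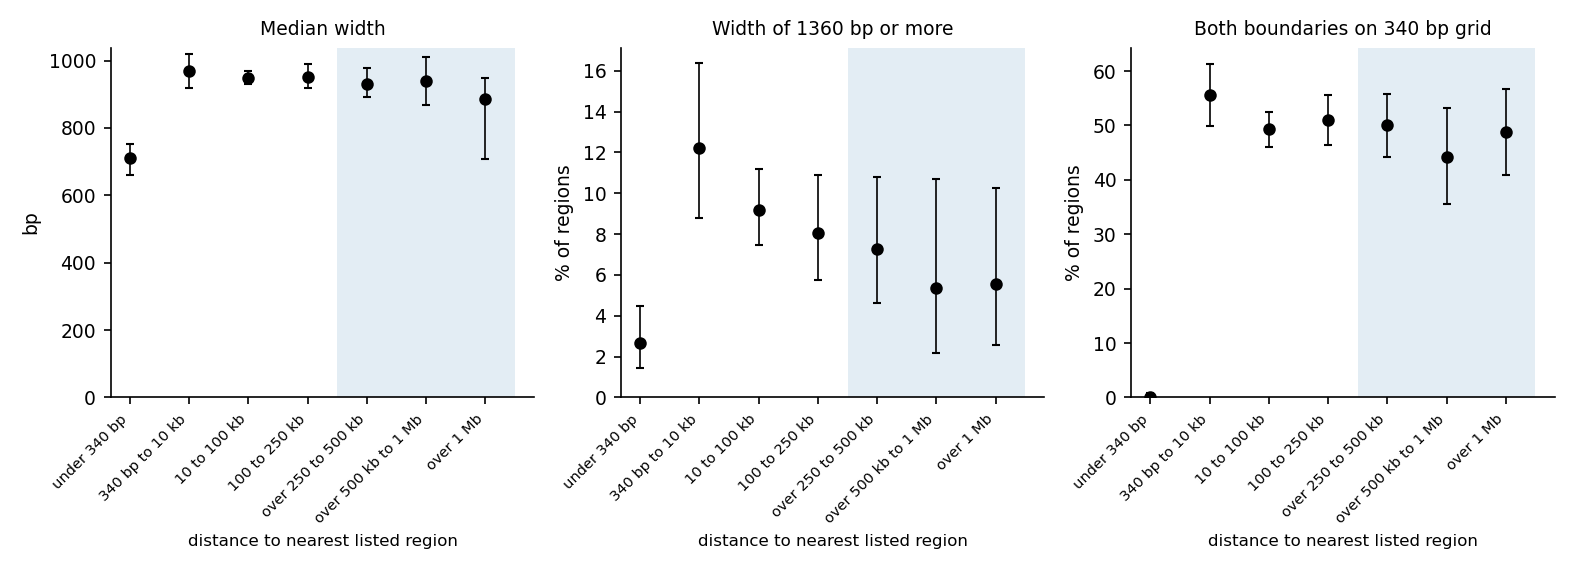
Median width in bp, percentage of regions of at least 1360 bp, and percentage with both boundaries on the 340 bp grid, by distance to the nearest listed region on the 18 chromosomes, with 95% intervals (order statistics for the median, exact binomial for shares). The shaded classes are the isolated regions, where the share of broad regions was 7.28, 5.34 and 5.56%; the class under 340 bp, at 710.5 bp, 2.65% and 0%, stands apart in each panel.

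Some isolated stretches of Klf9 association were not counted because they were listed in pieces. After joining of neighbours less than 340 bp apart, 646 intervals were isolated by the same distances. Of these, 51 (7.89%, 5.93 to 10.2%) consisted of 2 listed regions each, and among the 1947 other joined intervals 187 (9.60%) consisted of 2 to 4. The 51 had a median width of 1360 bp, from 680 to 2380 bp, and the same median was found for the 187. Chromosomes 3 and 2 held the most, with 7 and 6. The widest, of 2380 bp, lay on chromosome 9 from 20392521 to 20394900, with its nearest neighbour at 308 kb. Next came 2350 bp on chromosome 6 (91438241 to 91440590), at 756 kb, then 2340 bp on chromosome 5 (96401221 to 96403560), at 630 kb. Each was wider than any isolated region of the deposited list. These 3 were chosen after their values were seen. With pieces joined, the median width of isolated intervals was 949 bp, against 980 bp for the others.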

How the data were processed

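Chromatin pulled down on streptavidin and input chromatin were sequenced in 10 libraries. The submitters' processing notes name CASAVA, FastQC, Bowtie, bedtools and the build mm8, without saying which did what. How peaks were called, at which threshold and whether on pooled replicates is not given in the sources used. Per the file headers, the deposited list holds chromosome, start and end, in whole-number positions. Positions were taken as 1-based with the end included. Samples were grouped by their titles, but no comparison between groups could be made. Gaps, widths and runs were computed with pandas 2.3.3, and intervals at the 95% level with scipy 1.17.1. The code for the isolation rule was run on 20 simulated lists built with the same 250 kb distance. All isolated regions were recovered in 20 of them, which checks the code and not the rule. From RefSeq genes of GRCm38, a build other than that of the list, came only the number of protein-coding genes per chromosome. No coordinate was converted. Regions were named by rule: the 10 most distant, 5 widest and 5 narrowest isolated regions, all on chromosome X, the longest run, and 3 on each side of the threshold. The rule and the lists were chosen with earlier results of these data known. Alternatives were other distances, joining or leaving out regions, other chromosomes and the 0-based reading.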

Additional observations from a re-analysis of the deposited data

How the results depend on the processing

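The number of isolated regions depended on the distance required: 1066 at 100 kb, 293 at 500 kb and 162 at 1 Mb, by construction. Under the other 8 alternatives it lay between 556 and 656. The median width of isolated regions moved to 884.5 bp at 1 Mb and, by construction, to 1020 bp when only regions of at least the median width of the list were kept. The difference in median width, isolated minus other regions (19 bp), reversed to -24.5 bp at 1 Mb. It also reversed to -31 bp with regions less than 340 bp apart joined and to -40 bp with regions within 1 kb merged. At 500 kb, and with only regions of at least the median width kept, the difference was 0 bp. Its sign is therefore not settled by this list. Joining removes short pieces from the other regions and also adds joined intervals to the isolated set. Which of these changes moved the difference was not tested. Nor was the cause at 1 Mb tested. The share with both boundaries on the grid ranged from 45.1 to 49.5%. No paired analysis was possible because libraries have no values of their own here, nor could any replicate be left out. Depth per region, agreement of replicates and signal in the control line remain unknown.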
